A study of Mus musculus with 12 samples.

Results

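The comparison concerns 6 of the 12 libraries of the series: 3 of wild type and 3 of arid4b∆ CJ9 cells, a line of mouse embryonic stem cells, after 5 days of direction to mesoderm. The libraries were chosen by the lineage and genotype in their labels, and no measured value entered that choice. The control group was wild type at the Arid4b locus, and the other was labelled with a deletion of Arid4b; both received the same directed differentiation, whose agents the labels do not name. The labels do not say how the deletion was made, how many clones it represents, or whether libraries of one group stem from different cultures. The p-values therefore rest on a spread that may be technical only. Total RNA was sequenced after depletion of ribosomal RNA, and the other 6 libraries, the same genotypes directed to endoderm, entered the model fit and a test of the difference between the lineages.

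Arid4b encodes a subunit of the SIN3 complex, which brings histone deacetylases to chromatin. Mesoderm arises in the embryo when epiblast cells enter the primitive streak under Wnt, Nodal, BMP and FGF signals and switch on T-box and homeobox factors. Cells that leave the streak lose epithelial character and form paraxial, lateral, cardiac and blood-forming mesoderm, while epiblast that does not enter it can become ectoderm.

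Levels are given in CPM, the counts of a gene scaled to a common library total, for libraries 1, 2 and 3 of a group in that order. Total counts lay between 10352411 and 26319689 per library, of which the ribosomal precursor Rn45s took 80.0% to 82.4%. The 1950636 to 5264110 counts left, of which Mir6236 and Lars2 took 56.4% to 69.5%, set the precision. Arid4b itself (chromosome 13) stood at 37.0, 46.5 and 42.9 CPM in wild type and 44.9, 41.7 and 47.6 CPM in knockout (log2 fold change 0.10 ± 0.12 SE, adjusted p = 0.599), so a whole-gene count does not check the deletion and "knockout" means the libraries labelled so. Wild type library 1 lay nearer the knockout libraries than the other wild type libraries did. The root mean square log2 difference between it and the knockout libraries was 0.58 to 0.615, against 0.691 to 0.821 for wild type libraries 2 and 3. On the first principal component, with 58.0% of the variance, it lay at −15.3, the other wild type libraries at −44.4 and −35.8, and the knockout libraries at 26.9 to 36.0. Library 1 was still nearer its own group, at 0.465 and 0.545 from wild type libraries 3 and 2, and named genes whose call changes without it are given both ways.

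Of 11635 genes tested, 2224 (19.1%) differed between the genotypes at an adjusted p below 0.05 by the edgeR quasi-likelihood test, 1044 (8.97%) higher and 1180 (10.1%) lower in knockout. The shares of 8.97% higher and 10.1% lower are those against which all counts of list members below stand. Among calls of at least 2-fold, 488 were lower and 291 higher. The median log2 fold change of all tested genes was 0.01. In 3818 genes (32.8%) all knockout libraries lay above or all below the whole wild type range. Without wild type library 1, 2461 genes (20.5% of those tested) were called, and 733 of the 779 calls of at least 2-fold were shared with that fit. Without wild type library 3 the count fell to 1480. Among genes lower by at least 2-fold, library 1 was the wild type library nearest the knockout in 73.8%, and among those higher in 54.6%, whereas it was the lowest of the 3 wild type libraries in 32.5% and the highest in 34.8% of all tested genes.

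The factors of the primitive streak were lower in knockout, and T was among the largest changes. T, or brachyury, the T-box factor that mesoderm formation requires (chromosome 17, 8434423 to 8442496), stood at 131, 212 and 316 CPM in wild type and at 3.65, 2.78 and 7.76 CPM in knockout. The groups were far apart, although wild type library 1 was the lowest of its group (log2 fold change −5.51 ± 0.32 SE, adjusted p = 4.77e-10). Sp5, a zinc finger factor induced by Wnt signals, stood at 12, 19.1 and 16.2 CPM against 0, 0.309 and 1.07 CPM (−4.94 ± 0.42, adjusted p = 5.2e-08). The promoters of T and Sp5 are shown because both genes are textbook targets of the TCF/LEF factors, through which Wnt signals act. They are the RefSeq windows of GRCm38.p6 from 250 bases before to 50 after the gene start, chr17:8434173-8434472 and chr2:70474673-70474972, both on the + strand, with capitals on any match to the letters CTTTG followed by AA, AT, TA or TT on either strand.
T: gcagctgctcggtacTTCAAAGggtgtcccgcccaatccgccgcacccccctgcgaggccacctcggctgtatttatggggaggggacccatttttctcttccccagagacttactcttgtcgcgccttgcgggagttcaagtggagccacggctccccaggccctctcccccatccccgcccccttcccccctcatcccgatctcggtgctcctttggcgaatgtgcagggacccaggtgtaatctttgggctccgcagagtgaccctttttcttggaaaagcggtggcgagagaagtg
Sp5: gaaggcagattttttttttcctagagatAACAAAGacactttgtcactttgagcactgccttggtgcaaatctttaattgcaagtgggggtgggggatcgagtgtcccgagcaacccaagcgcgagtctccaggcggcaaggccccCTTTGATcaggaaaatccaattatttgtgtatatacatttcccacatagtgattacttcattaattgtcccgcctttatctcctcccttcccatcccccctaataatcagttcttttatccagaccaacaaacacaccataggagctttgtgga
The T window held 1 match and the Sp5 window 2. Such a match was present in 13.5% of the 9244 tested genes with a promoter in the table, in 18.0% of those lower by at least 2-fold, in 16.9% of those higher by at least 2-fold, in 4 of the 10 streak factors and in 6 of the 12 Wnt target genes that had one. The brachyury-type letters AGGTGTGA occurred in 0.984% of the 9244 windows and in 1.11% of those of genes lower by at least 2-fold. A match is a description of these letters and not of binding.

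Of the 13 streak factors tested, 8 fell and 1 rose, against 10.1% of all tested genes lower and 8.97% higher. Mixl1, a homeobox factor of the streak, went from 12.3, 33.6 and 38.3 CPM to 1.4, 1.54 and 3.21 CPM (−3.73 ± 0.40, adjusted p = 9.11e-07). Lhx1, which encodes a LIM homeodomain protein of anterior streak cells, went from 5.50, 7.23 and 10.8 CPM to 0.280, 0.617 and 0 CPM (−4.72 ± 0.54, adjusted p = 2.07e-06). In both genes wild type library 1 was the lowest wild type library and still stood above every knockout library. Eomes, a T-box factor that acts upstream of mesoderm and endoderm, changed less, from 53.3, 59.9 and 61.4 CPM to 12.1, 16.7 and 21.7 CPM (−1.79 ± 0.16, adjusted p = 7.58e-08). The member that rose was Otx2, a factor of epiblast and anterior neural cells, described with the epiblast genes. Foxh1, the Nodal cofactor, stayed at 43.2 to 47.0 CPM in wild type and 36.1 to 43.3 CPM in knockout (adjusted p = 0.487). The list's median log2 fold change was −1.79. In bulk RNA, fewer cells of a type and less RNA per cell cannot be told apart, here and below.

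**Figure D1:**
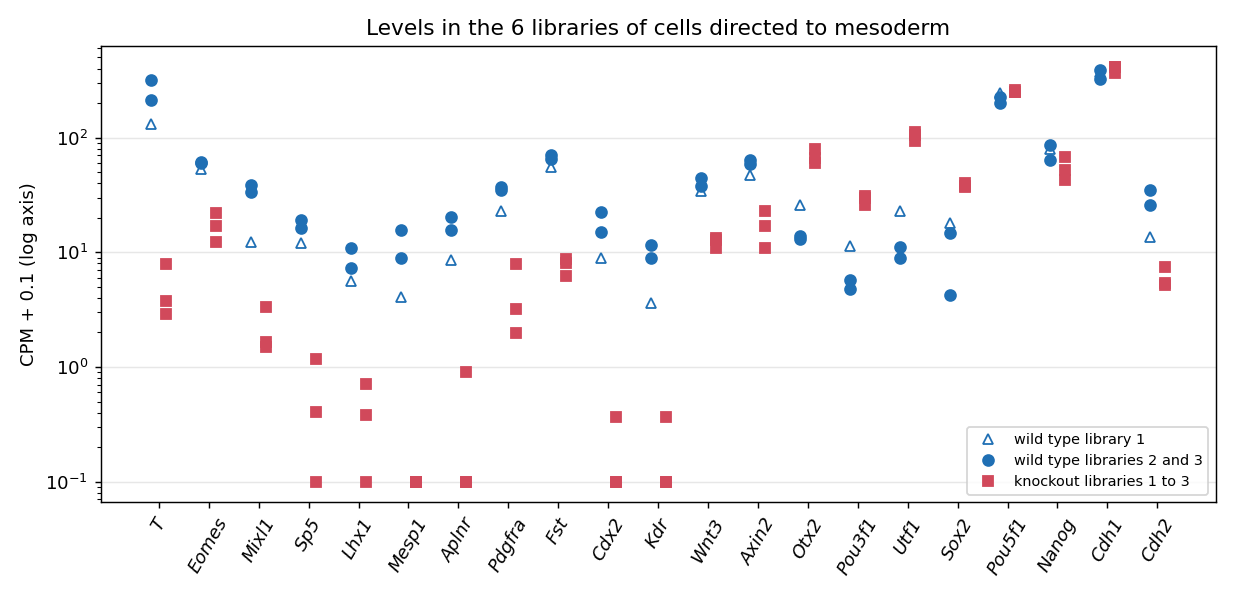
Level of 21 genes in the 6 mesoderm libraries, in CPM plus 0.1 on a log axis. Each point is 1 library, blue for wild type (open triangles for library 1) and red squares for knockout; T fell from 131 or more to 7.76 or fewer CPM, while Pou5f1 and Cdh1 overlapped or nearly overlapped between the groups.

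Genes of nascent and paraxial mesoderm fell with the streak factors: 7 of 10 tested members were lower and none higher, with a median log2 fold change of −2.41. The filter can keep a gene through a single group. Members near the counting floor in knockout, such as Mesp1 and Aplnr, were kept through other libraries, so this share is in part set by the filter. Mesp1, a bHLH factor of nascent mesoderm, had 98 counts in the wild type group and none in knockout. Set against 3 counts for the whole knockout group, the limit that a count of 0 allows, it was at least 29.0-fold lower (adjusted p = 1.22e-05). Aplnr, the apelin receptor on migrating mesoderm, went from 8.51, 20.2 and 15.7 CPM to 0, 0 and 0.803 CPM, a count ratio of 49.2 on 3 remaining counts (95% counting interval from 16.5; adjusted p = 6.32e-07). Fst, follistatin, an activin antagonist, held the smallest adjusted p of the list, with 54.8, 65.1 and 69.7 CPM against 6.17, 8.02 and 8.56 CPM (−3.06 ± 0.21, adjusted p = 2.65e-09). For Fst the wild type libraries, library 1 included, lay close together. Pdgfra, a growth factor receptor of early mesoderm, stood at 22.8, 34.6 and 37.1 CPM against 7.85, 3.09 and 1.87 CPM (−2.87 ± 0.30, adjusted p = 5.43e-07), and Rspo3, a secreted enhancer of Wnt signals, at 8.76, 21.2 and 29.5 CPM against 1.4, 0.926 and 1.34 CPM (−4.00 ± 0.51, adjusted p = 8.35e-06). Dll3, a Notch ligand of presomitic mesoderm, fell as well (−1.95 ± 0.32, adjusted p = 0.000143).

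The other 10 members of that list were too sparse to test. Msgn1, a master factor of presomitic mesoderm, held 48 counts in all in wild type against 0 in knockout, Tbx6 held 21 and 5, Mesp2 21 and 5, Cited1 38 and 6, and Meox1, a later somite factor, none in either group. The cardiac genes Tnnt2, with 0 and 2 counts, and Nkx2-5, with 1 and 1, were close to absent in both groups, whereas Actc1 held 64 and 18 and Tbx20 85 and 17. Pou5f1, the pluripotency factor Oct4, remained at 199 to 247 CPM in wild type.

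Caudal, lateral plate and blood-forming genes showed unequal changes. Cdx2, a caudal homeobox factor, went from 8.76, 15 and 22.3 CPM to 0, 0 and 0.268 CPM (−6.97 ± 0.68, adjusted p = 6.22e-07), and Hoxb1, an early Hox gene of the caudal embryo, from 2.50, 3.62 and 4.39 CPM to 0, 0 and 0.268 CPM (−4.85 ± 0.82, adjusted p = 0.00044). Each of them kept 1 count in all over the knockout libraries, so the 95% counting interval of the ratio starts at 30.9 for Cdx2 and 6.51 for Hoxb1. The other 25 caudal and Hox genes were not tested, and most held few counts in either group, Cdx1 31 and 0 among them. Of 10 lateral plate and cardiac genes, 7 fell and none rose, with a median of −1.57. Tbx3 (13.5, 33.6 and 50.3 CPM against 3.65, 4.32 and 5.89 CPM; −2.83 ± 0.37, adjusted p = 1.17e-05) and Msx2 (9.26, 15 and 15.5 CPM against 1.12, 0.926 and 1.34 CPM; −3.50 ± 0.35, adjusted p = 3.83e-07) are factors that respond to BMP. The GATA factor Gata4 changed by −0.95 ± 0.27 (adjusted p = 0.0171; up to 0.0711 when single libraries or the tool changed), and Actc1, cardiac actin, by −1.71 ± 0.45 (adjusted p = 0.00973; 0.0869 without wild type library 1). Hand1, a lateral mesoderm factor, was too sparse to test at 47 and 1 counts.

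Of 7 blood and endothelial genes only Kdr, which encodes a VEGF receptor marking vascular progenitors, fell, from 3.50, 8.79 and 11.5 CPM to 0, 0 and 0.268 CPM (−6.01 ± 0.78, adjusted p = 1.1e-05). Kdr kept 1 count over the knockout libraries, a count ratio of 88.0 with a 95% counting interval from 15.4. Flt1, another VEGF receptor, stood at 6.92 to 8.01 CPM and 4.82 to 10.7 CPM (adjusted p = 0.935), and Eng, an endothelial co-receptor, at 8.79 to 12.8 and 11.2 to 15.5 CPM (adjusted p = 0.513). Among definitive endoderm markers, Foxa2 held 8 counts over wild type and 4 over knockout, and of the 10 endoderm genes tested, Gata6 alone was called lower and none higher (−1.43 ± 0.49, adjusted p = 0.0457), a call that ended under 8 of the 13 alternatives without a fold threshold that gave it a value, with adjusted p up to 0.173. A single call among the 10 was near the 10.1% of all tested genes called lower. Without wild type library 1, Cxcr4, a chemokine receptor, was also called lower (−2.29, adjusted p = 0.00379) and Trh, a peptide hormone gene at 9.30 to 15.5 CPM in wild type and 22.7 to 25.0 CPM in knockout, higher (1.20, adjusted p = 0.0459).

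Some of the largest falls lay outside these lists. Sprr2a1 and Sprr2a2, near-identical copies of a cornified envelope gene, shared the same counts in every library, 21.5, 86.8 and 143 CPM in wild type and 0, 0 and 0.535 CPM in knockout (−8.60 ± 0.87, adjusted p = 4.37e-07), so their reads cannot be told apart. Alox15, a lipoxygenase, went from 51.3, 188 and 149 CPM to 1.68, 2.78 and 8.03 CPM (−4.88 ± 0.42, adjusted p = 5.2e-08). Wild type library 1 was the lowest wild type library in both cases. The carboxypeptidase-like gene Cpxm2 (−4.10 ± 0.54, adjusted p = 1.32e-05) and the diacylglycerol kinase Dgkk (−4.02 ± 0.46, adjusted p = 2.25e-06) completed the largest falls of genes with at least 5 CPM.

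Wnt pathway genes were lower at the level of targets and ligands, while receptors went both ways. Of 20 tested Wnt target genes, 14 fell and none rose, with a median of −1.64. Axin2, a negative feedback component induced by Wnt, went from 47.3, 58.4 and 64.1 CPM to 10.7, 16.7 and 23 CPM (−1.75 ± 0.19, adjusted p = 1.05e-06). Tnfrsf19, a receptor of the TNF family, went from 27.0, 31.0 and 25.8 CPM to 3.93, 9.57 and 7.49 CPM (−1.98 ± 0.22, adjusted p = 1.29e-06). Neither gene overlapped between the groups. Ccnd1, cyclin D1, often listed as a Wnt target, stood at 44.7 to 58.8 CPM in wild type against 55.9 to 73.5 CPM in knockout, with no call (adjusted p = 0.164). T, Sp5, Cdx2, Rspo3, Wnt3 and Fgf8 stand in this list and in others, so the lists are not separate results.

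Among ligands, Wnt3, which the embryo needs to form a streak, fell from 34.0, 37.7 and 44.0 CPM to 10.7, 12.7 and 13.1 CPM (−1.68 ± 0.15, adjusted p = 8.79e-08). Wnt8a went from 12.8, 16.5 and 11.6 CPM to 0.561, 0.926 and 3.48 CPM (−2.93 ± 0.36, adjusted p = 5.54e-06), and the ligands of non-canonical signalling Wnt5a (−2.48 ± 0.38, adjusted p = 8.1e-05) and Wnt5b (−3.14 ± 0.46, adjusted p = 4.05e-05) fell too. Wnt3a, too sparse to test, was counted 28 times in wild type against 0 in knockout. Of the receptors, Fzd10 fell from 35.0, 55.8 and 59.2 CPM to 7.01, 12.3 and 14.7 CPM (−2.13 ± 0.22, adjusted p = 6.5e-07), whereas Fzd7 rose from 45.8, 28.9 and 35.8 CPM to 90.0, 81.2 and 85.9 CPM (1.18 ± 0.12, adjusted p = 5.43e-07). The co-receptors Lrp5 and Lrp6 were not called (adjusted p = 0.697 and 0.0764). In all, 6 of 20 ligands, receptors and secreted inhibitors fell and 4 rose, and 7 rose without wild type library 1.

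Nodal pathway genes did not follow the streak factors. Nodal, the ligand, stood at 37.3, 26.4 and 27.3 CPM in wild type and at 22.4, 28.4 and 34.5 CPM in knockout, overlapping groups (−0.10 ± 0.17, adjusted p = 0.732). Tdgf1, its co-receptor Cripto, stood at 86.3 to 98.1 CPM and 59.7 to 113 CPM (adjusted p = 0.85). Lefty1, a feedback inhibitor of Nodal (chromosome 1, 180935022 to 180938401), rose from 1.25, 2.07 and 1.18 CPM to 12.9, 9.26 and 10.4 CPM (2.98 ± 0.33, adjusted p = 1.32e-06), and Lefty2, its neighbour and paralog, from 1.25, 1.03 and 2.53 CPM to 7.29, 10.5 and 17.4 CPM (2.67 ± 0.44, adjusted p = 0.000156). How far reads are shared between these paralogs is unknown. Gdf1, a ligand partner of Nodal, rose by 1.74 ± 0.30 (adjusted p = 0.000241), Smad7, an inhibitory SMAD, by 0.89 ± 0.18 (adjusted p = 0.00119) and Pcsk6, a convertase of Nodal, by 0.88 ± 0.23 (adjusted p = 0.00802; 0.0664 without wild type library 3). Of the 20 members tested, 6 rose and 2 fell, against 8.97% higher and 10.1% lower over all tested genes, so the falls were near that share. The falls were Acvr2b, an activin receptor (−0.47 ± 0.11, adjusted p = 0.00545), and the co-receptor Cfc1, named here after its value was seen (−3.38 ± 1.15, adjusted p = 0.0441). The number lower became 1 without wild type library 2, wild type library 3 or knockout library 3. Cer1, a Nodal inhibitor, entered the test through the endoderm libraries and held 0 counts in all 6 mesoderm libraries.

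In the BMP pathway 10 of 18 members fell and none rose, with a median of −0.80. They included the ligand Bmp7 (3.75, 8.27 and 7.26 CPM against 1.4, 1.85 and 0.803 CPM; −2.21 ± 0.41, adjusted p = 0.000595) and the response gene Msx1 (14.5, 26.4 and 29.9 CPM against 1.96, 8.33 and 7.22 CPM; −2.02 ± 0.31, adjusted p = 8.11e-05). Id1, the classical BMP target, fell from 30.0, 53.7 and 47.4 CPM to 23.3, 26.5 and 24.6 CPM (−0.79 ± 0.18, adjusted p = 0.00327). The ligand Bmp4 was too sparse to test, at 34 and 4 counts. The receptors Bmpr1a and Bmpr2 and the transducer Smad1 were not called (adjusted p = 0.0642, 0.473 and 0.0739), though Bmpr1a was called lower without wild type library 1 (−0.31, adjusted p = 0.0497).

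FGF pathway genes split by member, with 7 of 18 lower and 7 higher. Fgf8, the ligand of the streak, fell from 18.5, 32.6 and 34.1 CPM to 1.12, 8.64 and 5.89 CPM (−2.45 ± 0.33, adjusted p = 1.35e-05). The ligands of undifferentiated cells and epiblast moved the other way: Fgf4 rose from 7.51, 8.79 and 11.1 CPM to 33.6, 25.3 and 38.5 CPM (1.79 ± 0.23, adjusted p = 8.94e-06). Fgf15 rose from 2.75, 2.58 and 3.38 CPM to 16.8, 13.3 and 9.37 CPM (2.11 ± 0.26, adjusted p = 6.3e-06). Of the genes that ERK signalling induces, Egr1 rose (2.32 ± 0.34, adjusted p = 3.9e-05) and the phosphatase Dusp4 fell (−1.51 ± 0.18, adjusted p = 4.24e-06), while Spry2, a feedback inhibitor, stood at 20.7 to 22.4 CPM and 18.2 to 21.6 CPM (adjusted p = 0.747).

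Of 13 Notch pathway genes 3 fell and none rose, against 10.1% and 8.97% of all tested genes. Besides Dll3 these were the receptors Notch1 (50, 61.0 and 65.7 CPM against 26.9, 39.8 and 29.7 CPM; −0.88 ± 0.14, adjusted p = 0.000157) and Notch2 (−0.56 ± 0.09, adjusted p = 0.000108), while Notch3 stood at 80.1 to 125 CPM and 87.2 to 139 CPM (adjusted p = 0.632). Among retinoic acid genes, the degrading enzyme Cyp26a1 (27 and 1 counts, adjusted p = 0.00316) fell and the reductase Dhrs3 rose (1.56 ± 0.43, adjusted p = 0.0129; 0.0948 without wild type library 3 and 0.0743 without knockout library 2), with the receptors Rara, Rarg and Rxra uncalled (adjusted p = 0.766, 0.984 and 0.968).

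**Figure D2:**
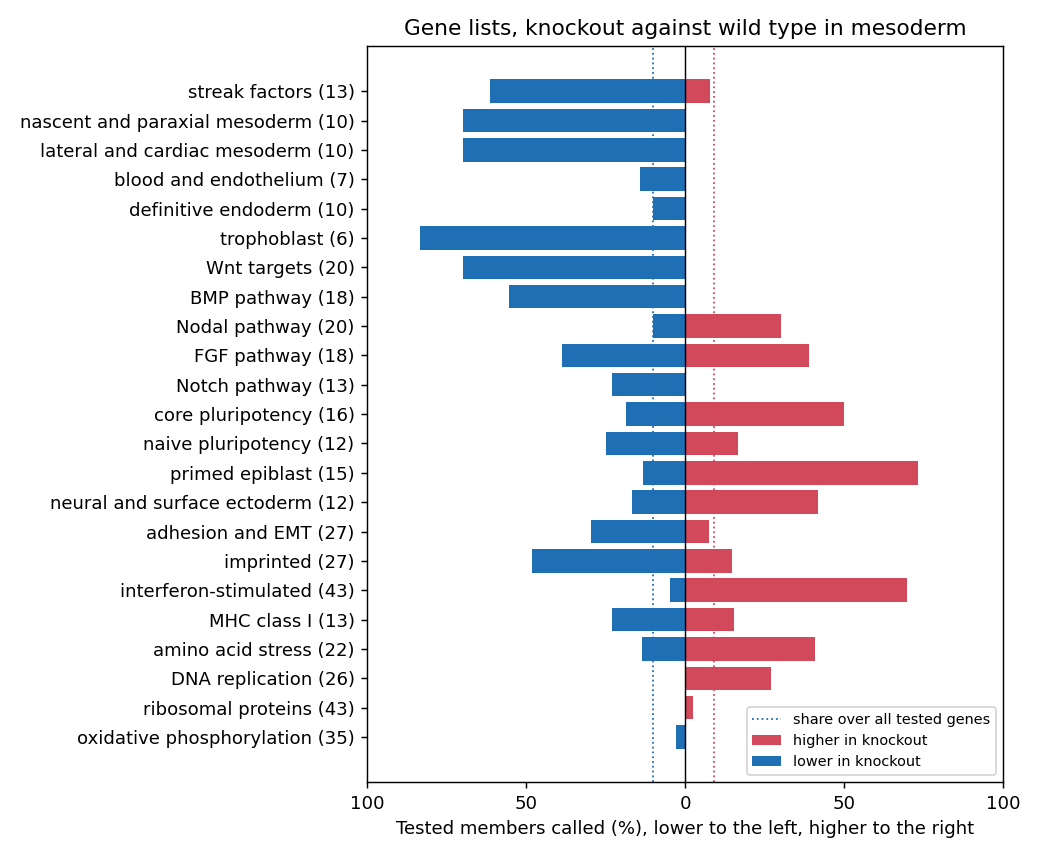
Share of tested members called higher (red, right) or lower (blue, left) in knockout mesoderm for 23 gene lists, with the number of members tested in brackets. Dotted lines mark the shares over all 11635 tested genes, 8.97% higher and 10.1% lower; bars of lists for streak, Wnt targets and trophoblast reach left, and those for primed epiblast and interferon-stimulated genes reach right.

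Genes of the primed epiblast, the state from which the streak arises, were higher in knockout: 11 of 15 rose and 2 fell, with a median of 0.77. Otx2 rose from 25.8, 12.9 and 13.7 CPM to 78.8, 66.0 and 60.5 CPM (1.95 ± 0.18, adjusted p = 2e-07). Pou3f1, or Oct6, a POU factor of epiblast and neural cells, rose from 11.3, 5.68 and 4.73 CPM to 30.8, 29.9 and 25.7 CPM (2.00 ± 0.23, adjusted p = 2.58e-06). Foxd3, a forkhead factor of epiblast, rose from 6.75, 2.58 and 2.19 CPM to 16.0, 19.4 and 16.1 CPM (2.15 ± 0.29, adjusted p = 2.03e-05). In these 3 genes wild type library 1 was the highest wild type library. Fgf5, the classical epiblast ligand, rose by 1.57 ± 0.28 (adjusted p = 0.000318), and by 2.35 without that library. Lef1, a Wnt effector in the list, fell (37.5, 41.3 and 51.6 CPM against 20.2, 14.2 and 18.2 CPM; −1.32 ± 0.16, adjusted p = 6.13e-06). Dnmt3a and Pim2 were not called (adjusted p = 0.14 and 0.939) but were called higher without wild type library 1 (0.29 and 0.47, adjusted p = 0.0442 and 0.00611).

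Core pluripotency genes were unequal too: 8 of 16 rose, 3 fell and the median was 0.50. Utf1, a chromatin factor of undifferentiated cells (chromosome 7, 139943856 to 139945112), rose from 23, 8.79 and 11.1 CPM to 112, 106 and 93.7 CPM (2.80 ± 0.19, adjusted p = 1.27e-09). Sox2, which pluripotent and neural cells share, rose from 18.0, 4.13 and 14.7 CPM to 37.3, 37.7 and 39.9 CPM (1.48 ± 0.21, adjusted p = 2.91e-05). Both groups of libraries stayed apart for these genes. L1td1, an RNA-binding protein of pluripotent cells, rose by 0.84 ± 0.11 (adjusted p = 1.1e-05) and Dppa2 by 2.01 ± 0.41 (adjusted p = 0.00122). Pou5f1 was not called, at 247, 226 and 199 CPM against 249, 261 and 249 CPM (0.18 ± 0.10, adjusted p = 0.249). Nanog, active in pluripotent cells and in the streak, fell from 80.1, 63.6 and 86.2 CPM to 42.6, 52.5 and 67.4 CPM, groups that overlap (−0.53 ± 0.14, adjusted p = 0.00843; 0.0638 without wild type library 3 and 0.066 without knockout library 1).

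Of 12 naive pluripotency genes, 2 rose, Fgf4 and Dppa5a, and 3 fell, Tbx3, Nanog and Klf5, a Krüppel-like factor (23.3, 36.2 and 38.3 CPM against 8.13, 11.7 and 15 CPM; −1.48 ± 0.22, adjusted p = 5.41e-05). Dppa5a ranged from 27.2 to 80.5 CPM in knockout and its call ended without wild type library 1, wild type library 2 or knockout library 3, with adjusted p up to 0.448. Zfp42, or Rex1, was not called (0.65 ± 0.31, adjusted p = 0.161).

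Neural and surface ectoderm genes were mostly too sparse to test. Of 12 tested, 5 rose, 4 of which (Sox2, Pou3f1, Zic2 and Sox3) also serve in epiblast, and 3 rose without knockout library 1. Zic2 rose by 0.77 ± 0.13 (adjusted p = 0.000196) and Sox3 by 0.69 ± 0.21 (adjusted p = 0.0207; 0.076 without wild type library 1). Nes, a neural progenitor filament, stood at 67.3 to 93.8 CPM and 67.2 to 80.2 CPM (adjusted p = 0.834), and Pax6 and Sox1 held 5 and 13, and 2 and 5 counts. The 2 that fell were Irx3 (−1.96 ± 0.59, adjusted p = 0.0211) and Tfap2a, an AP-2 factor of surface ectoderm and neural crest (6.5, 24.8 and 17.6 CPM against 1.12, 2.78 and 3.21 CPM; −2.69 ± 0.42, adjusted p = 0.000102); the Irx3 call ended without wild type library 1, knockout library 1 or knockout library 2, with adjusted p up to 0.0985. Of 6 trophoblast genes 5 fell, of which Cdx2 and Eomes are streak and caudal factors as well. Tfap2c fell by 2.52 ± 0.44 (adjusted p = 0.000321) and Gata3 by 2.71 ± 0.55 on the log2 scale (adjusted p = 0.00128).

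Genes of adhesion and of the passage from epithelium to mesenchyme changed in part. Cdh1, E-cadherin, stood at 373, 390 and 322 CPM in wild type and 415, 412 and 369 CPM in knockout, without a call (0.15 ± 0.10, adjusted p = 0.361). Cdh2, N-cadherin, fell from 13.5, 25.8 and 35.1 CPM to 7.29, 5.25 and 5.08 CPM (−2.10 ± 0.36, adjusted p = 0.000219), and Snai1, the repressor of E-cadherin, from 9.76, 6.72 and 11.0 CPM to 2.80, 1.54 and 2.14 CPM (−2.12 ± 0.40, adjusted p = 0.000601). Cdh3, P-cadherin, rose (1.20 ± 0.20, adjusted p = 0.00018). The simple-epithelium keratin Krt8 fell from 29.5, 68.7 and 62.4 CPM to 20.7, 26.5 and 24.6 CPM (−1.13 ± 0.22, adjusted p = 0.000951) and its partner Krt18 by 0.82 ± 0.20 (adjusted p = 0.00506). In all 8 of 27 members fell and 2 rose, against 10.1% lower and 8.97% higher over all tested genes, so the rises were near that share. Without wild type library 1, 5 rose. Only 1 rose without wild type library 3, knockout library 1 or knockout library 3, and 5 fell without knockout library 3. Of the matrix genes, Lamb1, a laminin chain, fell (145, 155 and 196 CPM against 89.2, 98.8 and 77.6 CPM; −0.91 ± 0.14, adjusted p = 5.59e-05) and so did Gpc3, a glypican (−1.26 ± 0.23, adjusted p = 0.000378). Fn1, fibronectin, stood at 412, 428 and 860 CPM against 556, 321 and 265 CPM, with no call (adjusted p = 0.133; −0.77 and 0.0403 without wild type library 1).

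Imprinted genes fell more often than they rose, with 13 of 27 lower and 4 higher; 8 were lower without knockout library 3. Peg3, a paternally expressed zinc finger gene (chromosome 7, 6703892 to 6730462), went from 348, 472 and 578 CPM to 70.9, 77.2 and 91.8 CPM (−2.54 ± 0.14, adjusted p = 4.64e-10). Peg10, a retrotransposon-derived gene of placenta, went from 141, 454 and 491 CPM to 30.3, 46.9 and 57.0 CPM (−3.01 ± 0.31, adjusted p = 5.43e-07), and Phlda2 from 15.3, 28.4 and 33.8 CPM to 1.68, 2.16 and 3.21 CPM (−3.44 ± 0.34, adjusted p = 3.22e-07). The 3 genes belong to different imprinted clusters, and their groups did not overlap. Meg3 and Kcnq1ot1, imprinted noncoding RNAs, the second of them on chromosome 7 near Phlda2, were not called (adjusted p = 0.606 and 0.313). Snrpn and its overlapping neighbour Snurf rose (0.70 ± 0.15 for Snrpn, adjusted p = 0.0017), and most of their reads cannot be assigned to either gene.

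Interferon-stimulated genes had the largest number of members higher in knockout, 30 of 43 tested against 2 lower, with a median of 1.34. Over all tested genes 8.97% were higher and 10.1% lower. The list was among the longest, and by share the primed epiblast genes, with 11 of 15 higher, were similar. Members near the counting floor in wild type, such as Oas1a and Rtp4, were kept by the filter through other libraries, so the share is in part set by it. Ifit3, a binder of viral RNA, rose from 0.751, 0 and 0.506 CPM to 23.6, 13.0 and 8.56 CPM (4.81 ± 0.66, adjusted p = 3.46e-05). Oas1a, an oligoadenylate synthetase, rose from 0.751, 0.517 and 0.844 CPM to 8.97, 13.6 and 12.8 CPM (3.91 ± 0.37, adjusted p = 2.06e-07), and Usp18, which removes the modifier ISG15, from 0, 0.517 and 1.35 CPM to 13.2, 12.7 and 9.90 CPM (3.93 ± 0.45, adjusted p = 2.03e-06). These genes were near the counting floor in all wild type libraries, library 1 included. Gvin1, an interferon-induced GTPase, was not counted in wild type and had 178 counts in knockout, which is at least 66.7-fold higher than 3 counts for the whole wild type group (adjusted p = 7.51e-05); Gm4070 held the same counts, so the reads of these copies cannot be told apart. Ifit1 rose by 3.68 ± 0.52 (adjusted p = 2.77e-05), Rtp4 by 3.56 ± 0.39 (adjusted p = 1.32e-06) and Lgals3bp by 2.96 ± 0.44 (adjusted p = 6.21e-05).

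The promoters of Oas1a and Ifit1 are shown because their letters hold the interferon-stimulated response element, through which interferon signals act on genes. They are the RefSeq windows of GRCm38.p6 chr5:120907476-120907775 on the − strand and chr19:34640639-34640938 on the + strand, printed in the direction of the gene, with capitals on matches to GAAA, any 2 bases and GAAA on either strand.
Oas1a: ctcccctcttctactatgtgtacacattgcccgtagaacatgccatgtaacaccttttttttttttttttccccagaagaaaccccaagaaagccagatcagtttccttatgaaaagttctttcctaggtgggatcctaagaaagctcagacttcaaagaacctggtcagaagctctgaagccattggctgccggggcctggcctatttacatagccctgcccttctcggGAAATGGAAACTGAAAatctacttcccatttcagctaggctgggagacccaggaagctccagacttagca
Ifit1: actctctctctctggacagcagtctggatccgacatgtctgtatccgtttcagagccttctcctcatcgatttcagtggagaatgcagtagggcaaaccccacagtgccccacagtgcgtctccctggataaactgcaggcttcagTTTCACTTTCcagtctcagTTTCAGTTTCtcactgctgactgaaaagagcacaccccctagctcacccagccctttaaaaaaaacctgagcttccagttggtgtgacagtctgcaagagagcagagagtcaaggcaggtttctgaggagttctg
Each window held 2 matches, which overlap in Oas1a. The element was found in 3.46% of the 9244 tested genes with a promoter in the table, in 11.6% of those higher by at least 2-fold, in 4.43% of those lower by at least 2-fold and in 21 of 34 interferon-stimulated genes. Bst2, tetherin, rose from 19.8, 17.6 and 18.9 CPM to 64.2, 70.4 and 83.5 CPM (1.94 ± 0.14, adjusted p = 4.83e-09), with little spread in either group. Trim25, a ubiquitin ligase of RNA sensing, rose by 1.05 ± 0.11 (adjusted p = 6.22e-07).

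Not all interferon genes rose. Ifitm1, a membrane protein also known from early mesoderm and germ cells, fell from 23.8, 40.8 and 41.2 CPM to 3.08, 2.16 and 7.22 CPM (−3.03 ± 0.31, adjusted p = 5.58e-07), and Gbp2, named after its value was seen, fell by 1.67 ± 0.32 (adjusted p = 0.000815). Samhd1 stood at 46.9 to 53.7 CPM and 53.8 to 59.7 CPM (adjusted p = 0.212). Summed over the list, the wild type libraries held 351, 437 and 554 CPM and the knockout libraries 923, 863 and 919 CPM; wild type library 1, nearest to knockout in streak genes, was here the farthest from it. Of the genes of antigen presentation, against 8.97% higher and 10.1% lower over all tested genes, 2 of 13 rose, H2-D1 (1.20 ± 0.29, adjusted p = 0.00548; 0.055 without wild type library 3) and B2m (1.16 ± 0.32, adjusted p = 0.0127; up to 0.117, without knockout library 1), and 3 fell, Erap1 (−0.95 ± 0.18, adjusted p = 0.000784), Tapbp (−0.70 ± 0.17, adjusted p = 0.00474; 0.0947 without wild type library 3) and Tapbpl (−1.16 ± 0.38, adjusted p = 0.0344; up to 0.266, without wild type library 3).

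Markers of feeder fibroblasts were also measured in these libraries. Their summed level over the 16 listed genes was 133, 47.0 and 72.6 CPM in wild type and 254, 130 and 107 CPM in knockout, ranges that overlap. Fbln2, a matrix protein, was called (7.01, 1.55 and 4.56 CPM against 30.6, 14.8 and 13.9 CPM; 2.03 ± 0.40, adjusted p = 0.000928), 1 of the 10 tested members, near the 8.97% of all tested genes called higher. Without wild type library 1 or without knockout library 3, 4 were called higher. The collagens Col1a1 (1.16 ± 0.41, adjusted p = 0.0546) and Col1a2 (1.26 ± 0.46, adjusted p = 0.0622) were not called in the fit of all libraries but were without wild type library 1 (adjusted p = 0.0164 and 0.00889). Postn, also in the list, was not called (1.18 ± 0.47, adjusted p = 0.0873) but was called higher without wild type library 1 (2.07, adjusted p = 0.00576). Other feeder markers, Mfap5 with 0 and 0 counts, Fap with 0 and 3 and Lum with 1 and 2, were at or near 0, unlike the genes above. The part of such cells in the interferon and matrix results was not tested.

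Chromosomes 8, 13, 18, Y and X, and the Y-linked genes and Xist named below, were singled out after their values were seen. Genes on chromosome 8 had a median log2 fold change of 0.27 over 648 tested genes, with 162 (25.0%) higher and 28 (4.32%) lower. Over all tested genes these shares were 8.97% and 10.1%. The median shift from the wild type mean on chromosome 8 was 0.24, 0.28 and 0.27 in the knockout libraries and 0.02, −0.02 and 0.01 in the wild type libraries, so library 1 did not share it. The same median was 0.23 for the knockout in endoderm. No other autosome had a median above 0.10 or below −0.06. By share of calls others stood out too. Chromosome 13, which carries Arid4b, had 77 of 465 tested genes (16.6%) higher, and chromosome 18 had 53 of 310 (17.1%) lower. Bst2, Kbtbd11, a kelch-domain protein (4.75, 2.07 and 1.01 CPM against 21.3, 20.1 and 20.6 CPM; 3.05 ± 0.28, adjusted p = 1.31e-07), Slc7a5, Gdf1 and Cdh3 lie on chromosome 8. So do Dusp4 and Irx3, which fell, and the replication genes and Rpl13 marked below. Whether the shift bears on their changes was not tested.

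**Figure D3:**
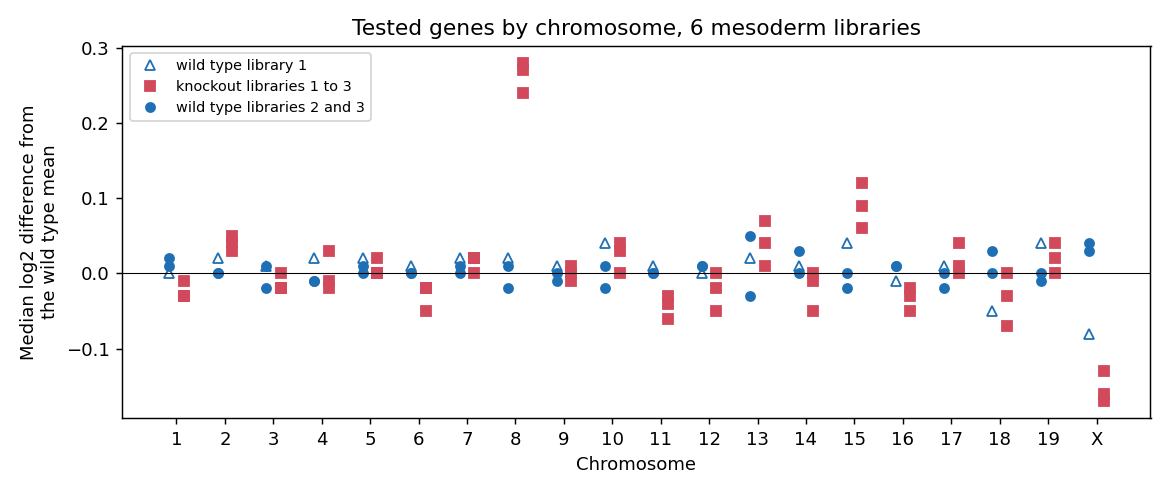
Median log2 difference from the wild type mean over the tested genes of each autosome and chromosome X, by library. Blue marks are wild type (open triangles for library 1) and red squares are knockout; on chromosome 8 the knockout libraries lie at 0.24 to 0.28 and the wild type libraries near 0.

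Y-linked genes were low in knockout. Ddx3y, a helicase, stood at 26.5, 22.7 and 27.5 CPM in wild type and 4.49, 0.926 and 3.75 CPM in knockout (−3.05 ± 0.25, adjusted p = 4.05e-08). Uty, a demethylase homologue, stood at 22, 32.6 and 38.5 CPM against 3.08, 0.926 and 2.94 CPM (−3.71 ± 0.29, adjusted p = 2.14e-08), and Eif2s3y, a translation factor subunit, at 21.5, 32.0 and 28.5 CPM against 4.21, 3.09 and 6.42 CPM (−2.53 ± 0.23, adjusted p = 1.41e-07). All 8 tested Y-linked genes were called lower, with a median of −2.87; they include Rbmy and 4 gene models with nearly the same counts, whose reads may not be told apart. In endoderm the knockout also had low Ddx3y (−3.80) and Uty (−3.66). For Ddx3y wild type library 1 stood within the range of the other wild type libraries, while its median over the 8 genes lay at −0.95 from the wild type mean, against −3.27 to −1.70 in knockout.

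On chromosome X, 85 of 412 tested genes (20.6%) were lower and 28 (6.80%) higher, with a median of −0.17, against 10.1% lower and 8.97% higher over all tested genes. Wild type library 1 lay at −0.08 from the wild type mean and the knockout libraries at −0.17 to −0.13. Xist, the noncoding RNA of X inactivation, stood at 16.5, 15 and 20.4 CPM in wild type and 51.9, 33.0 and 30.0 CPM in knockout (1.10 ± 0.21, adjusted p = 0.000677); it overlaps its antisense gene, and the use of strand in counting is not given in the sources used here. Rbbp7, a histone-binding protein of the SIN3 and PRC2 complexes (chromosome X, 162760372 to 162779090), fell from 232, 278 and 238 CPM to 85.0, 108 and 119 CPM (−1.25 ± 0.12, adjusted p = 1.72e-07). Its autosomal paralog Rbbp4 stood at 137 to 149 CPM and 132 to 147 CPM (adjusted p = 0.957). Of the 23 SIN3 and HDAC genes, Rbbp7 and Ogt, also X-linked (−0.35 ± 0.10, adjusted p = 0.0208), were the 2 called, against 19.1% of all tested genes called in either direction. Without wild type library 1, 3 others were called higher. The Ogt call ended without any of 4 single libraries, with adjusted p up to 0.112.

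Amino acid transport and one-carbon genes rose in part: 9 of 22 genes of the amino acid stress list were higher and 3 lower, 1 lower without wild type library 3 or knockout library 2. Over all tested genes 8.97% were higher and 10.1% lower. Slc7a3, a transporter of basic amino acids, rose from 20.3, 7.75 and 6.75 CPM to 76.3, 76.2 and 56.2 CPM (2.57 ± 0.24, adjusted p = 1.73e-07). Slc7a5 and Slc3a2, the chains of a transporter of large neutral amino acids, rose by 1.09 ± 0.11 (adjusted p = 3.93e-07) and 0.68 ± 0.10 (adjusted p = 4.1e-05), and Mthfd2, a mitochondrial folate enzyme, by 1.25 ± 0.18 (adjusted p = 4.8e-05). Phgdh, the first enzyme of serine synthesis, was not called (adjusted p = 0.126; 0.45 and 0.0275 without wild type library 1). Cth, which makes cysteine, fell (10.5, 18.1 and 23.1 CPM against 5.61, 4.01 and 8.29 CPM; −1.53 ± 0.29, adjusted p = 0.000567).

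Of 23 cell cycle and p53 genes 5 fell and 2 rose. Over all tested genes 10.1% were lower and 8.97% higher, so the rises were near that share, which also stands beside the other lists of this paragraph. Without wild type library 1, 5 rose, and none rose without wild type library 2, wild type library 3, knockout library 2 or knockout library 3. Of the D cyclins, Ccnd2 fell from 41.5, 58.4 and 56.5 CPM to 19.9, 21.9 and 15 CPM (−1.46 ± 0.26, adjusted p = 0.000378) and Ccnd3 by 1.02 ± 0.15 (adjusted p = 3.62e-05), while Ccnd1 was not called. The cyclin-dependent kinase inhibitor Cdkn1c changed by −0.97 ± 0.23 (adjusted p = 0.00414). Of 26 DNA replication genes 7 rose and none fell, Mcm5 first (0.60 ± 0.11, adjusted p = 0.000347), but only 1 was higher without wild type library 3, 3 without knockout library 1, and 4 without knockout library 2 or 3. Mcm5, Gins2 and Cdt1, 3 of the 7, lie on chromosome 8, whose part in their change was not tested. Glycolysis genes such as Eno1, Gapdh and Pkm were not called (adjusted p = 0.757, 0.947 and 0.265), while Ldhb, the lactate dehydrogenase chain of aerobic tissue, fell from 58.0, 58.9 and 61.3 CPM to 29.4, 21.0 and 30.2 CPM (−1.14 ± 0.14, adjusted p = 4.19e-06) and the glucose transporter Slc2a3 by 1.33 ± 0.21 (adjusted p = 0.00013). Of 43 ribosomal protein genes 1 was called, Rpl13 on chromosome 8 (0.39 ± 0.13, adjusted p = 0.0378), and of 35 oxidative phosphorylation genes 1, Sdha (−0.28 ± 0.10, adjusted p = 0.0496). The Rpl13 call ended without any of 4 single libraries and the Sdha call under 9 of 14 alternatives without a fold threshold.

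The same genotypes directed to endoderm showed where the knockout effect differed between the lineages. The difference itself passed the interaction test in 163 of 11635 genes (1.4%), in 354 without wild type mesoderm library 1, and in 105 without wild type endoderm library 2 or 104 without knockout mesoderm library 2.

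**Figure D4:**
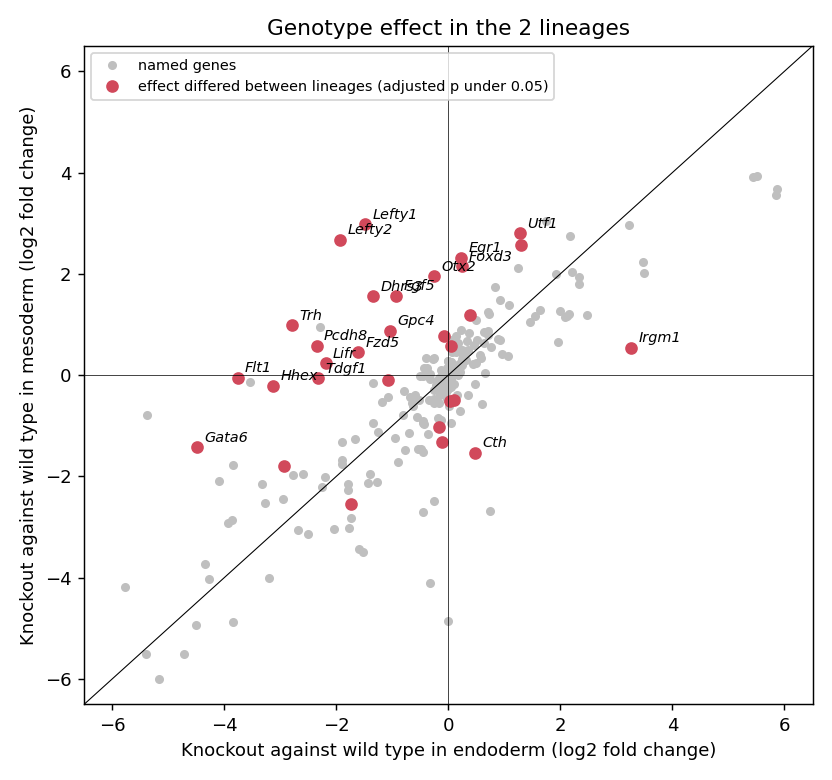
Log2 fold change of knockout against wild type in mesoderm (vertical) and in endoderm (horizontal) for the genes named by the rule that were tested; the line marks equal effects and axes are cut at ±6.5. Red points passed the test of the difference, and Lefty1, Lefty2, Trh and Flt1 lie above the line.

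Lefty1 and Lefty2 changed in opposite directions in the lineages, rising in mesoderm and lower in endoderm (−1.48 and −1.93), with differences of 4.46 and 4.59 on the log2 scale (adjusted p of the difference 2.3e-07 and 2.06e-05). Otx2 rose in mesoderm and was not called in endoderm (−0.25; difference 2.20, adjusted p = 8.76e-06). For T, whose endoderm change was −5.40, no difference was called (adjusted p = 0.996). Eomes fell less in mesoderm than in endoderm (−2.93 there; difference 1.15, adjusted p = 0.00699; 0.0618 without knockout mesoderm library 3). Genes not called in mesoderm but lower in endoderm gave differences too, Flt1 (3.71, adjusted p = 3.57e-06), Tdgf1 (2.25, adjusted p = 1.49e-05), Trh (3.77, adjusted p = 2.8e-05), and Pcdh8, a protocadherin of paraxial mesoderm (2.93, adjusted p = 3.07e-05), among them. Fgf5 rose in mesoderm and was lower in endoderm (−0.93 there), with a difference of 2.51 (adjusted p = 0.000132). Utf1 rose more in mesoderm than in endoderm (1.27 there), with a difference of 1.54 (adjusted p = 0.00101). Of 43 interferon-stimulated genes 9 passed the test of the difference, each with a larger rise in endoderm, and the list median was 1.34 in mesoderm and 3.02 in endoderm. For Oas1a and Ifit3, with changes of 5.44 and 8.05 in endoderm, no difference was called (adjusted p = 0.525 and 0.689). Irgm1, an interferon-induced GTPase, was higher in endoderm (3.26) and was not called in mesoderm (0.54 ± 0.19, adjusted p = 0.0521; difference −2.72, adjusted p = 3.02e-05).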

How the data were processed

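Ribosome-depleted total RNA of 12 libraries, 3 per genotype and lineage, was read from 1 deposited table of raw counts per gene. Alignment with STAR to mm10 and the use of DESeq2 are named in the submitters' processing notes; for the counting program, its use of strand and its annotation, the sources used here give nothing. Gene positions and promoter sequences came from RefSeq GRCm38.p6. The ribosomal precursor Rn45s did not enter library sizes or tests, nor did 26 genes whose cell in 1 endoderm library held a calendar date.

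Genes were tested with the edgeR 4.0.16 quasi-likelihood test (R 4.3.3, limma 3.58.1) on the 12 libraries with 4 group means, TMM factors and filterByExpr at a minimum count of 10, which kept 11635 genes, with Benjamini-Hochberg adjustment over all of them and a threshold of 0.05. The filter can keep a gene through a single group. Genes near the counting floor in a single genotype, such as Mesp1, Aplnr, Cdx2, Hoxb1, Kdr and Gvin1, were kept through other libraries. List shares among tested members are in part set by this. The standard error of a log2 fold change is its size divided by the square root of F. CPM values use the TMM-scaled library sizes, and counting intervals and floors of 3 counts cover counting error only. The scripts were tested on simulated data. Alternatives were DESeq2 1.42.0, RLE factors, limma-voom, a test against 1.5-fold, no filter, other library sizes, the mesoderm libraries alone, a replicate block and leaving out each library.

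Named genes are Arid4b, a panel of lineage and signalling genes, the 10 largest rises and 10 largest falls whose mean level reached 5 CPM and whose groups do not overlap, and from each list up to 6 called members with the smallest adjusted p and up to 3 uncalled members with the highest level; untested members are given by their counts. The members, lists and this rule were chosen with earlier results of these data known. Wild type library 1 was kept, and the named genes whose call changes without it are given both ways. Some list members are not reported here.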

Additional observations from a re-analysis of the deposited data

Results flagged for a closer look

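For 23 of the genes named above the knockout effect differed between mesoderm and endoderm by the edgeR interaction test; the values are the log2 effect in mesoderm minus that in endoderm. Among Nodal pathway genes the difference was 4.46 for Lefty1, 4.59 for Lefty2, 2.25 for Tdgf1 and 0.97 for Nodal, whose endoderm change was −1.07. Among streak, mesoderm and endoderm genes it was 1.15 for Eomes, 2.20 for Otx2, 2.93 for Pcdh8, 3.71 for Flt1, 3.77 for Trh and 3.05 for Gata6. Among epiblast genes it was 1.54 for Utf1, 1.91 for Foxd3, 0.84 for Zic2 and 2.51 for Fgf5. Signalling genes gave 0.80 for Fzd7, −1.21 for Lef1, 2.09 for Egr1 and 2.90 for Dhrs3. The others were −2.72 for the interferon-induced Irgm1, −0.81 for the imprinted Peg3, −0.85 for Ccnd3, 1.27 for the transporter Slc7a3 and −2.0 for Cth. Across the alternatives without a fold threshold the call for Nodal and Slc7a3 ended under 9, for Peg3 and Ccnd3 under 10, for Gata6 under 6, for Lef1 under 3, for Egr1 under 2 and for Eomes, Fzd7, Foxd3 and Cth under 1 of 19.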

How the results depend on the processing

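No named gene called in mesoderm reversed its sign under any alternative run; some uncalled ones near 0 did, such as Nodal (−0.10, and 0.08 without wild type library 1). Of 114 named genes called in mesoderm, 81 kept their call under every alternative and 96 under all but the test against 1.5-fold. That test left 502 of the 2224 called genes, 169 higher and 333 lower, and 55 of the 163 lineage differences. Leaving out 1 library gave 1480 to 2461 called genes, 689 to 1199 higher and 791 to 1262 lower, and 104 to 354 lineage differences. With no filter 377 lineage differences were called. Whether replicate numbers pair the samples cannot be settled with so few libraries per group. Same-numbered wild type and knockout libraries correlated at 0.115, 0.0132 and 0.0675 in their deviations from the group means. Knockout library 1 correlated best with its own number, and knockout libraries 2 and 3 did not. With the replicate block, 2532 genes were called, 1227 higher and 1305 lower, and 346 lineage differences. The cause of these changes was not tested. Depth limits the tests: 775679 to 2296304 counts per library remained without Rn45s, Mir6236 and Lars2, so many lineage factors were too sparse to test.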

Other observations

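Of the 26 genes left out because 1 endoderm cell held a date, 16 could be tested with edgeR in the mesoderm libraries alone. Septin8 (−0.63, adjusted p = 0.0156) and Septin9 (−0.35, adjusted p = 0.0451), cytoskeletal GTPases, were lower in knockout.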
